A study of Mus musculus with 40 samples.

Results

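The genes compared were the 4492 protein-coding genes of the mouse whose transcription start site (TSS) was nearest to at least 3 NCoR peaks in fed control liver, out of 21938 protein-coding genes in the annotation. For each gene, the share of its NCoR peaks that also carried HDAC3 was taken, and genes at both ends of that share were described. A peak is a short interval where chromatin immunoprecipitation followed by sequencing (ChIP-seq) found a protein on DNA, and HDAC3 was counted at an NCoR peak when an HDAC3 peak centre lay within 200 bp of the NCoR centre. The study mapped BCL6, PPARs, corepressors and a histone mark in fed and fasted liver. The part of it used here held 40 samples in 18 groups, of corepressors, a histone mark, PPARδ and input. Only the NCoR and HDAC3 lists of ad lib fed control animals were used here, each made from 3 pooled libraries of liver. These males were C57BL/6 mice with the genotype Bcl6 fl/fl, so they carried the floxed Bcl6 allele with no Cre to delete it. Their age is not stated here, and whole liver was used, which holds other cell types beside hepatocytes.

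NCoR is a large scaffold protein that unliganded nuclear receptors and repressors such as BCL6 bring to DNA. It binds the histone deacetylase HDAC3 and switches on its enzyme activity, and the assembled complex removes acetyl groups from histones and lowers transcription of nearby genes. In liver the complex is known for its part in lipid, glucose and circadian gene control.

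The NCoR list held 35138 peaks and the HDAC3 list 14462. HDAC3 was present at 13951 NCoR peaks, or 39.7% (exact 95% interval 39.2 to 40.2%). In the other direction, 96.5% of HDAC3 peaks lay at an NCoR peak, so the lists were nearly nested. Where both were called, their centres were a median of 23 bp apart. The lists give positions with no height, score or value per library. The spread between animals could therefore not be measured, an NCoR peak without HDAC3 is one where HDAC3 did not pass the authors' threshold, and less HDAC3 and a weaker HDAC3 antibody or library cannot be told apart. All intervals and p-values below treat peaks as independent and cover counting error only.

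The NCoR peak nearest to a TSS is shown for 2 leading genes of the upper end and 3 of the lower, so that the DNA behind a call can be read beside it. Each is the 200 bp around the peak centre on the plus strand of GRCm38 (mm10), in lower case, with matches to the motifs described below in capitals. The windows are chr5:32138436-32138635 for Fosl2 (intron), chr5:139872062-139872261 for Elfn1 (intergenic), chr4:150282146-150282345 for Rere (intron), chr10:17722199-17722398 for Cited2 (promoter) and chr2:35621926-35622125 for Dab2ip (promoter).
Fosl2: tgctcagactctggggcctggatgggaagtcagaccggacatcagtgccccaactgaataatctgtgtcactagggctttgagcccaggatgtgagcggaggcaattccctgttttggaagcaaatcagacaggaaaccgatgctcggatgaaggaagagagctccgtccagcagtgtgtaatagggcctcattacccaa
Elfn1: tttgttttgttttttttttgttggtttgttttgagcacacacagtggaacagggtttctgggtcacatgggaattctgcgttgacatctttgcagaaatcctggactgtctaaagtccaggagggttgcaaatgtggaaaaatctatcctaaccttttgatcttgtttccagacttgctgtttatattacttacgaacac
Rere: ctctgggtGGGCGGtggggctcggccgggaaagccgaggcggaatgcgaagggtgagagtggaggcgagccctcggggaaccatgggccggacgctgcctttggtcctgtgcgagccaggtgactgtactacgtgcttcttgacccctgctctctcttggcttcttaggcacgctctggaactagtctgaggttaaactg
Cited2: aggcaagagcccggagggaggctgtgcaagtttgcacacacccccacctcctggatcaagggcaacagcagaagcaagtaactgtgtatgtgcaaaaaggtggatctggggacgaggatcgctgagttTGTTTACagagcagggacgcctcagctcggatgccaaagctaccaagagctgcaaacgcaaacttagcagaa
Dab2ip: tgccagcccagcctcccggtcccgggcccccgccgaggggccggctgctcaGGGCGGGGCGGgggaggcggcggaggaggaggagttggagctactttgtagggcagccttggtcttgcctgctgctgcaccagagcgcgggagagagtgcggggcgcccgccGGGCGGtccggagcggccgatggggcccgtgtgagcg
HDAC3 was present at the windows of Fosl2 and Elfn1, with its centre 46 and 26 bp away. Neither was rich in CpG dinucleotides, and neither held a motif match. The windows of Rere and Dab2ip had no HDAC3, were CpG-rich and held 1 and 3 SP/KLF matches. The Cited2 window, with a FOX match and an HDAC3 centre 4 bp away, was one of only 2 peaks of that gene with HDAC3.

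Most genes had NCoR peaks of both kinds. Among the 4492 genes, 3750 (83.5%) held at least 1 NCoR peak with HDAC3 and at least 1 without. HDAC3 was at every NCoR peak of 154 genes (3.43%) and at none of 588 (13.1%). The median gene had HDAC3 at 40% of its NCoR peaks, with quartiles of 25% and 60%. These genes held 26710 NCoR peaks, 76.0% of the list, and HDAC3 was at 42.3% of them.

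Genes at the extremes mostly had few peaks. Of the genes with HDAC3 at all peaks, 100 had just 3 NCoR peaks, and of those with HDAC3 at none, 340 had 3. The largest number of peaks at a gene with HDAC3 throughout was 10, and at a gene with none it was 9. If every gene had the common share of 42.3% and peaks were independent, 139 genes would lie at all and 417 at none. These are reference values from the binomial formula, set beside the observed 154 and 588 as a description. The variance of the genes' counts was 1.22 times the binomial value. At the limit of membership, 314 of 2165 genes with 2 NCoR peaks had HDAC3 at both and 981 at neither, while of 1315 genes with 3 peaks 100 had HDAC3 at all and 340 at none.

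No single gene passed the test after adjustment. With Fisher's exact test (two-sided) of each gene's peaks against all other NCoR peaks, and Benjamini-Hochberg adjustment over 4492 genes, 0 genes (0%) differed at 0.05. The smallest adjusted p was 0.354. At an unadjusted p under 0.05, 152 genes (3.38%) had a higher share and 29 (0.646%) a lower one. These counts cannot be set against each other. HDAC3 at 4 of 4 peaks gave p = 0.025 in this Fisher's exact test, while 0 of 6 gave 0.088 and 0 of 7 gave 0.047. A gene with HDAC3 at none of 6 or fewer peaks could therefore not be counted as lower. The number of peaks bounds what could be called. For a single call at this adjustment a gene needed at least 13 NCoR peaks, all with HDAC3, or at least 24 with none, and 290 and 36 genes had that many peaks. The order of the genes below is therefore a description.

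**Figure D1:**
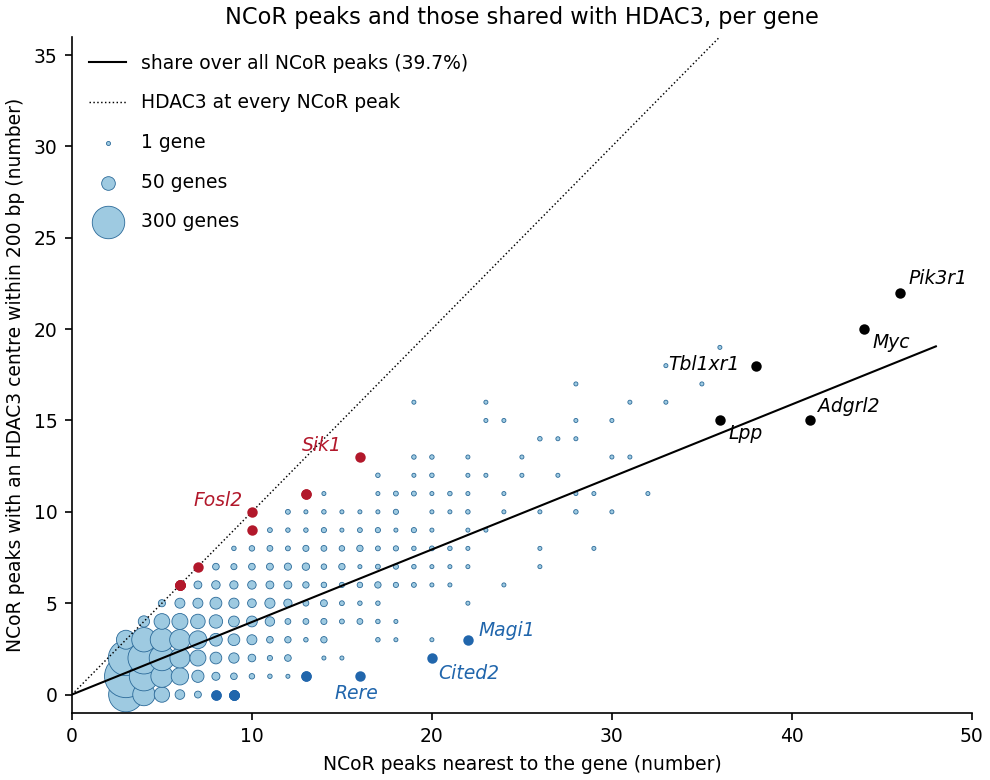
Each circle stands for the genes with a given number of NCoR peaks (x axis) and of NCoR peaks with HDAC3 (y axis), its area growing with the number of genes. The solid line is the 39.7% share over all NCoR peaks, and the named genes of the upper end (red), lower end (blue) and those with most NCoR peaks (black) are marked. Most genes lie around the line, and those on the dotted line or on the x axis have at most 10 peaks.

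The upper end was led by Fosl2, which encodes an AP-1 family transcription factor. All of its 10 NCoR peaks had HDAC3, between 168 kb upstream and 19.7 kb downstream of a TSS (exact 95% interval of the share 69.2 to 100%). Most lay upstream, in introns of a neighbouring gene or between genes, and none at a promoter. The unadjusted p of Fisher's exact test was 9.7e-05 for Fosl2, with an adjusted p of 0.354. When NCoR peaks under 1 kb apart were counted once, with HDAC3 if any of them had it, the adjusted p of Fosl2 was 0.25 over 4291 genes. Among the 583 genes with 10 or more peaks, a limit chosen after seeing the data, Fosl2 passed with an adjusted p of 0.046. That test still set it against NCoR peaks of all genes (39.7% with HDAC3), while the share for genes with 10 to 19 peaks was 44.1%. Fosl2 was named for its high share, so its p-values are low by selection and the pass lends no support.

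Scarb1, on the same chromosome 5, was also at the upper end. It encodes the receptor through which liver takes up cholesterol from high-density lipoprotein. HDAC3 was at 11 of its 13 NCoR peaks, in an unbroken run of 11 from 67.1 kb to 9.60 kb downstream of the TSS. The peaks without HDAC3 were those 3.89 kb downstream and 19.8 kb upstream. Sik1, a kinase of the salt-inducible family that restrains glucose production genes, had HDAC3 at 13 of 16 peaks, including 1 at its promoter. Btg1, an antiproliferative factor, had 11 of 13, and Ttpa, the hepatic α-tocopherol transfer protein, 9 of 10. The single Ttpa peak without HDAC3 was at the promoter.

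The remaining genes of the upper end had HDAC3 at every peak but few peaks. Elfn1, a transmembrane leucine-rich repeat protein, had 7. Most of these lay 116.5 to 205.5 kb downstream of the TSS, past the end of the gene and in introns of a neighbouring one. Acot1 (a fatty acyl-CoA thioesterase and PPARα target), Clpx (a subunit of a mitochondrial protease), Commd7, Fnip2 (a folliculin partner) and Igfbp2 (an insulin-like growth factor binding protein) had 6 each. The lower interval bound for a gene with 6 of 6 was 54.1%. For Acot1, 2 of the 6 peaks were at promoters.

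The lower end was led by Rere, which encodes an atrophin family nuclear receptor corepressor. HDAC3 was at 1 of its 16 NCoR peaks (6.25%, 0.158 to 30.2%), all of them intronic, and the single peak with HDAC3 lay 80.8 kb downstream of a TSS. Cited2, a coregulator that binds CBP and p300, had HDAC3 at 2 of 20 peaks (10%, 1.24 to 31.7%). Its territory, the stretch of DNA nearer to its TSS than to any other, spanned 1518 kb, and its peaks reached 1094 kb upstream. One peak with HDAC3 was the promoter peak printed above, 0.92 kb upstream of the TSS, and the other was 246 kb upstream.

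Smad1, a transducer of bone morphogenetic protein signals, had HDAC3 at none of 9 NCoR peaks. Of these, 6 were intronic, 2 intergenic and 1 at a CpG-rich promoter. Dab2ip (a Ras GTPase activator), Lhfpl2, Plekhg1 and Usp24 (a deubiquitinase) were likewise at 0 of 9. An upper interval bound of 33.6% goes with 0 of 9. Magi1, a scaffold at cell junctions, had 3 of 22. Il1r1, the interleukin-1 receptor, and Sash1 had 1 of 13 each, and Ankrd28 and Erc2 0 of 8. Unadjusted p-values of Fisher's exact test at the lower end ran from 0.0044 to 0.026, and adjusted values from 0.923 to 0.927.

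**Figure D2:**
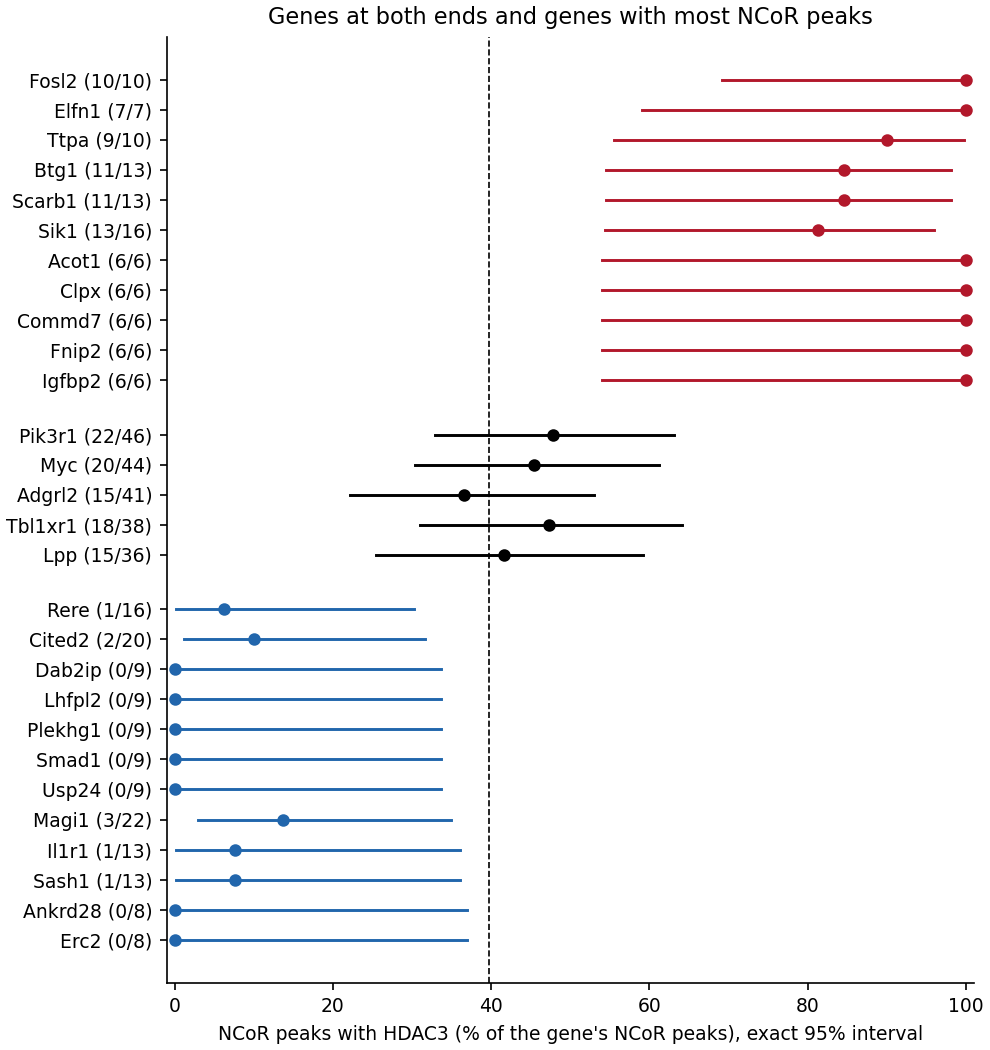
The points give the percentage of each gene's NCoR peaks that had HDAC3, with exact 95% intervals from the counts in brackets, for 11 genes at the upper end (red), the 5 genes with most NCoR peaks (black) and 12 at the lower end (blue). The dashed line is the 39.7% over all NCoR peaks, which lies inside every black interval.

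**Figure D3:**
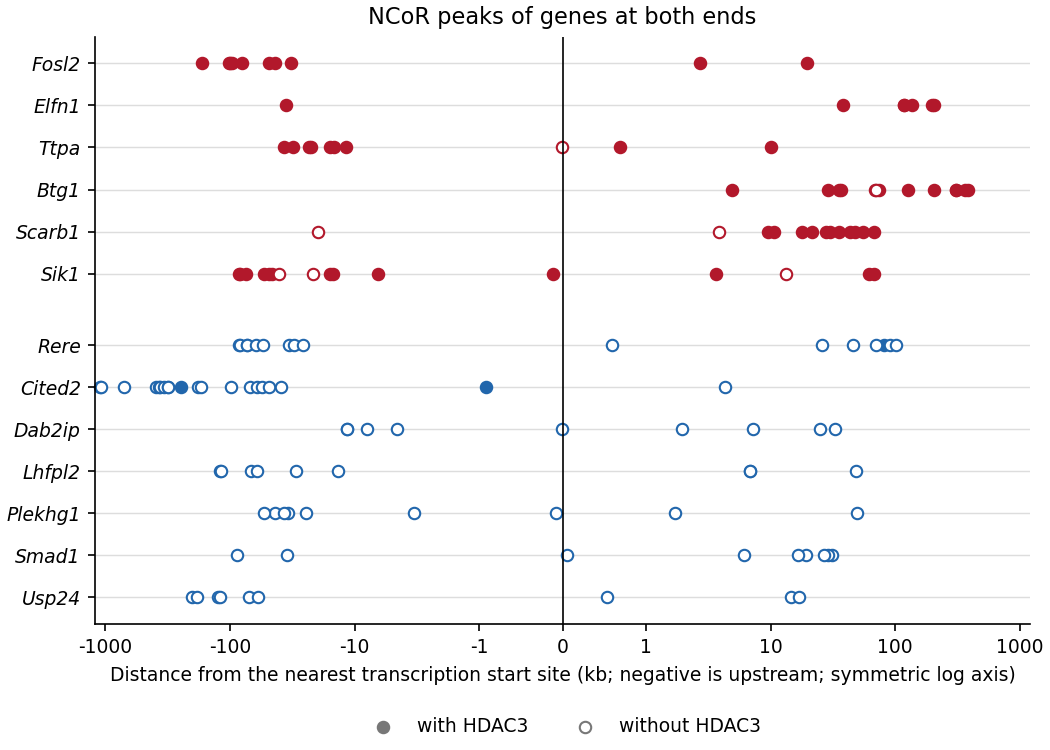
The NCoR peaks of 6 genes of the upper end (red) and 7 of the lower (blue) are placed by distance from the nearest TSS of that gene in kb, on a symmetric log axis with upstream to the left. Filled points had HDAC3 and open points did not. Peaks with HDAC3 lay on both sides of a TSS for Fosl2 and only downstream for Scarb1. The single filled point of Cited2 near the TSS is its promoter peak.

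Genes with most NCoR peaks lay near the common share. Pik3r1, the regulatory subunit of phosphoinositide 3-kinase, had the most, with HDAC3 at 22 of 46 (47.8%, 32.9 to 63.1%). Myc had 20 of 44, all intergenic. Adgrl2, an adhesion receptor, had 15 of 41. Tbl1xr1, a subunit of the NCoR complex itself, had 18 of 38, including 2 promoter peaks with HDAC3. Lpp, a focal adhesion protein, had 15 of 36. The unadjusted p of Fisher's exact test was 0.29 or higher for each of these.

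The share also varied with how many NCoR peaks a gene had. HDAC3 was at 28.5% of NCoR peaks that stood alone at their gene (27.1 to 29.9%, 4098 peaks) and at 34.6% where the gene had 2. It was at 38.7% for genes with 3 peaks, 41.7% with 4, 42.3% with 5 to 9, and 44.1% both with 10 to 19 and with 20 or more. The intervals of the groups from 4 peaks upward overlapped.

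The HDAC3 share differed with where an NCoR peak lay and with the sequence around it. At promoters, from 1000 bp upstream to 100 bp downstream of a TSS, HDAC3 was at 1050 of 3657 NCoR peaks (28.7%). Elsewhere it was at 12901 of 31481 (41.0%), for an odds ratio of 0.58 (p = 2.4e-48, two-sided Fisher's exact test). CpG-rich windows, with at least 50% G and C and an observed to expected CpG ratio of at least 0.6 over 200 bp, had HDAC3 at 763 of 3150 peaks (24.2%). Other windows had it at 13188 of 31988 (41.2%, odds ratio 0.456, p = 6.8e-82 in the same exact test).

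Promoter location and CpG content overlapped but did not coincide. HDAC3 was at 22.2% of CpG-rich promoter peaks, 37.1% of other promoter peaks, 28.0% of CpG-rich peaks outside promoters and 41.4% of the rest. Within promoters the odds ratio for CpG-rich windows was 0.485 (Fisher's exact test, p = 1.1e-22). By distance, the share was 26.9% within 0.2 kb of a TSS, 32.4% from 0.2 to 1 kb and 40.5% from 1 to 5 kb. It then stayed between 41.3% and 43.1% up to 500 kb, and was 36.4% beyond (31.8 to 41.2%, 154 of 423 peaks).

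Differences in the same direction were found between peaks of the same gene. In the 2379 genes with NCoR peaks both at promoters and elsewhere, HDAC3 was at 31.7% of promoter peaks and 41.7% of the others (Mantel-Haenszel odds ratio over genes 0.685, 95% interval 0.618 to 0.760). In the 1937 genes with CpG-rich and other windows, it was at 26.0% and 41.4% (odds ratio 0.546, 0.487 to 0.613). These within-gene values, and the odds ratio within promoters, were added after seeing the data.

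**Figure D4:**
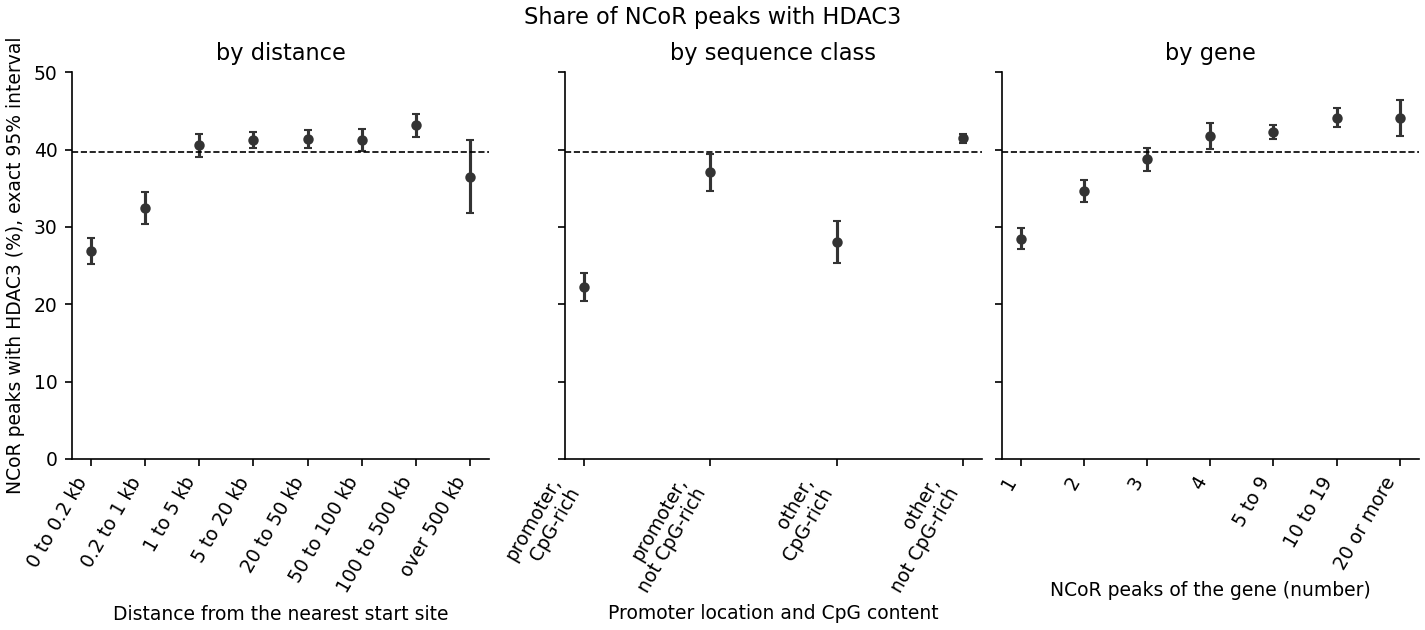
The y axis gives the percentage of NCoR peaks with HDAC3, with exact 95% intervals, by distance from the nearest TSS (left), by promoter location and CpG content of the 200 bp window (middle) and by the number of NCoR peaks of the nearest gene (right). The lowest values are the 26.9% within 0.2 kb of a TSS, the 22.2% of CpG-rich promoter peaks and the 28.5% of peaks that were alone at their gene.

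Motifs of liver transcription factors were more frequent at NCoR peaks with HDAC3, and GC-rich motifs common at promoters were less frequent there. Of 8 motifs searched on both strands of the 200 bp windows, 5 were more frequent with HDAC3 and 2 less frequent (Fisher's exact test, two-sided, Benjamini-Hochberg over 8 motifs). The C/EBP motif (TTGCGCAA, TTGTGCAA, TTACGCAA or TTATGCAA) was in 7.13% of peaks with HDAC3 and 4.45% without, an odds ratio of 1.65 (adjusted p = 5.3e-26). The HNF6/CUX2 motif (TATCGATC, TATCGATT, TATTGATC or TATTGATT) was in 6.87% and 4.89% (odds ratio 1.43, adjusted p = 2.1e-14). The FOX motif (TGTTTAC) was in 9.02% and 6.89% (1.34, adjusted p = 9.4e-13). The HNF4 motif (CAAAGGCCA, CAAAGGTCA, CAAAGTCCA or CAAAGTTCA) was in 8.77% and 7.24% (1.23, adjusted p = 2.5e-07). The BCL6/STAT motif (TTCCNAGAA, TTCCNGGAA, TTCTNAGAA or TTCTNGGAA) was in 4.38% and 3.48% (1.27, adjusted p = 2.3e-05).

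The promoter motifs went the other way. SP/KLF (GGGCGG), which itself contains a CpG, was in 7.20% of peaks with HDAC3 and 11.6% without (odds ratio 0.59, adjusted p = 1.2e-42). ETS/ELK (CCGGAAGT), which also contains a CpG, was in 0.409% and 0.982% (0.414, adjusted p = 6.4e-10). Without promoter peaks the odds ratios of SP/KLF and ETS/ELK were 0.7145 and 0.4725. Without CpG-rich peaks, a setting added after seeing the data, they were 0.779 and 0.4743. The NF-Y motif (CCAATC) was in 7.18% and 7.54% (adjusted p = 0.20). As a background, windows of the same length 2000 bp to either side of NCoR peaks held C/EBP in 1.22%, FOX in 2.91%, HNF4 in 1.33%, HNF6/CUX2 in 1.24%, BCL6/STAT in 2.95%, SP/KLF in 3.45%, ETS/ELK in 0.182% and NF-Y in 6.11%. A match is a run of letters and not a bound site.

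Genes at the ends hold by definition only NCoR peaks with HDAC3 or only peaks without it, so a comparison of their peaks repeats the comparison of single peaks and is no separate trait of these genes. Over all NCoR peaks, 763 of 13951 with HDAC3 (5.47%) and 2387 of 21187 without it (11.3%) were CpG-rich. Of the 552 NCoR peaks at genes with HDAC3 at all of them, 21 were CpG-rich (3.80%). At genes with HDAC3 at none it was 225 of 2201 (10.2%), for an odds ratio of 0.347 (p = 4.2e-07, two-sided Fisher's exact test). Among genes with 5 or more peaks, where 21 genes were at all and 108 at none, the odds ratio was 0.508 and the exact test was not passed (p = 0.181). Promoter peaks made up 10.3% and 11.4% (odds ratio 0.891, Fisher's exact p = 0.498), and this direction depended on the definition. With a promoter of 5000 bp on either side it turned, with an odds ratio of 1.33 (exact p = 0.0055), and with peaks beyond 50 kb from a TSS left out it was 0.693 (p = 0.018).

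Territories were also compared. Among genes with exactly 3 NCoR peaks, the median territory was 90.0 kb for those with HDAC3 at none, 73.6 kb with HDAC3 at 1 peak, 64.9 kb at 2 and 51.0 kb at 3. CpG-rich windows made up 11.8%, 8.75%, 7.18% and 3% in the same groups, which differ by the HDAC3 state of their peaks. These were not tested. The C/EBP motif was in 6.34% of windows at genes with HDAC3 at all peaks (35 of 552) and in 3.18% at genes with none (70 of 2201). ETS/ELK was in 0 of 552, which allows up to 0.666% (exact interval), and in 0.909%. HNF4, HNF6/CUX2 and SP/KLF also differed in the direction seen over all NCoR peaks. FOX (6.34% at all and 6.63% at none), BCL6/STAT (3.62% and 3.77%) and NF-Y (8.51% and 6.36%) went the other way. Exact intervals at all and at none overlapped for every motif but C/EBP and SP/KLF. These motif values were not tested.

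Neighbouring NCoR peaks had the same HDAC3 state a little more often than the 39.7% over all NCoR peaks gives, whether or not they belonged to the same gene. If the states of neighbours were unrelated, 52.1% of pairs would match. Adjacent peaks of the same gene matched in 57.7% of pairs under 2 kb apart, 55.5% at 2 to 10 kb, 53.7% at 10 to 50 kb and 56.2% beyond. For adjacent peaks with different nearest genes the values were 63.4% (52 of 82 pairs), 56.1%, 54.9% and 56.97%. Over these 4 distance bins no difference between same and different genes passed Fisher's exact test (odds ratios 0.786, 0.977, 0.955 and 0.969, adjusted p 0.62 to 0.75). In the shortest bin the direction turned when the nearest gene's 5′ end was used as its TSS (odds ratio 1.085).

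Most gene lists of liver pathways lay above the 39.7% over all NCoR peaks, many with intervals that included it. Below it were oxidative phosphorylation, complement and coagulation, and the urea cycle and amino acid breakdown. Each list is given by its pooled peaks, beside the 39.7% over all NCoR peaks, with exact intervals and no test, since the lists were chosen with results of these data known. In every list the members are the genes with 3 or more NCoR peaks, and no member of any list passed the adjusted test (0% of all genes did).

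Fat-burning genes and drug-metabolising enzymes had the highest shares. HDAC3 was at 49 of 79 NCoR peaks of mitochondrial and peroxisomal fatty acid oxidation genes (62.0%, 50.4 to 72.7%), and 10 of the 11 members lay above the median gene. Acaa2 had 7 of 11 and Eci2 5 of 8, both enzymes of β-oxidation. For cytochrome P450 families 1 to 3 the share was 42 of 68 (61.8%), with the xenobiotic enzymes Cyp3a11 at 7 of 10, Cyp2c29 at 5 of 6 and Cyp2b10 at 4 of 6. The fasting and PPAR target genes that the study names had 70 of 119 (58.8%, 49.4 to 67.8%), and 15 of 18 members lay above the median. The study chose that list on related samples, so its direction is not independent evidence. Bdh1, a ketone body enzyme, had 5 of 12, Por, the electron donor of P450 enzymes, 6 of 10 and the hydrolase Abhd2 8 of 9.

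Lists for synthesis and signalling lay between. Lipogenesis and sterol synthesis genes had 75 of 156 (48.1%), where Elovl6, a fatty acid elongase, had 13 of 19 and Gpam, which starts glycerolipid synthesis, 4 of 16. Glucose production and use had 65 of 133 (48.9%), with the glycogen-targeting subunit Ppp1r3b at 9 of 19, the coactivator Ppargc1a at 8 of 18 and the glycolytic regulator Pfkfb3 at 3 of 17. Insulin signalling had 78 of 169 (46.2%), with Irs2 at 16 of 31 and Foxo1 at 16 of 23. The growth hormone list, at 48.4%, included Bcl6 (8 of 20), the growth hormone receptor Ghr (7 of 19) and Igf1 (8 of 18). The circadian clock list was at 48.1%, with Rora at 15 of 30, Bhlhe40 at 11 of 19 and Hlf at 7 of 12.

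Regulators of hepatocyte identity were near the common share. Hepatocyte transcription factors had 88 of 202 (43.6%), with Nr5a2 at 13 of 25, Foxa2 at 12 of 22 and Tcf7l2 at 6 of 24. Nuclear receptors had 80 of 189 (42.3%), with Nr2f2 at 14 of 27, the thyroid hormone receptor Thrb at 5 of 22 and Esrrg at 8 of 19. Bile acid genes had 38 of 77 (49.4%), among them Cyp7b1 (3 of 12), Abcb4 (4 of 10) and Abcc2 (6 of 9). Kruppel-like factors had 54 of 108, with Klf4 at 10 of 18, Klf3 at 10 of 15 and Klf12 at 8 of 15. Corepressor complex genes had 43 of 83 (51.8%), where Tbl1xr1 gave 38 of the peaks and Tbl1x had 2 of 9.

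The lowest shares were at the lists for oxidative phosphorylation, for complement and coagulation and for the urea cycle and amino acid breakdown. Oxidative phosphorylation genes had HDAC3 at 7 of 45 NCoR peaks (15.6%, 6.49 to 29.5%). Of 37 genes 15 had no NCoR peak, beside 11183 of all 21938 protein-coding genes. The 5 members were led by Ndufb9 (1 of 8), Ndufb3 (1 of 6) and Cox6c (2 of 4). CpG-rich windows made up 28.9% of the list's peaks, against 8.97% of all NCoR peaks. Complement and coagulation genes had 24 of 77 (31.2%, 21.1 to 42.7%). Here 0% of peaks were CpG-rich but 31.2% were at promoters, against 10.4% of all NCoR peaks. F11 had 2 of 7, F5 0 of 6 and Cfi 0 of 5. Urea cycle and amino acid genes had 26 of 77 (33.8%), with Arg1, the arginase of the urea cycle, at 2 of 9, Cps1 at 3 of 8 and Got1 at 4 of 7. Whether promoter or CpG content had a part in the list values was not tested.

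Other housekeeping lists had higher values than the respiratory chain. Cytosolic ribosomal protein genes had 21 of 43 (48.8%), of which Rplp1 alone gave 10 of 12. No NCoR peak was found at 21 of the 37 genes, beside 11183 of all 21938 protein-coding genes. Proteasome genes had 18 of 42 (42.9%), with Psma6 at 3 of 7 and Psma1 at 4 of 4. Apolipoprotein and secretion genes had 51 of 108 (47.2%) and were uneven. Lipc, the hepatic lipase, had 9 of 14, Apob 5 of 15 and Apoa1, the main protein of high-density lipoprotein, 3 of 17.

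**Figure D5:**
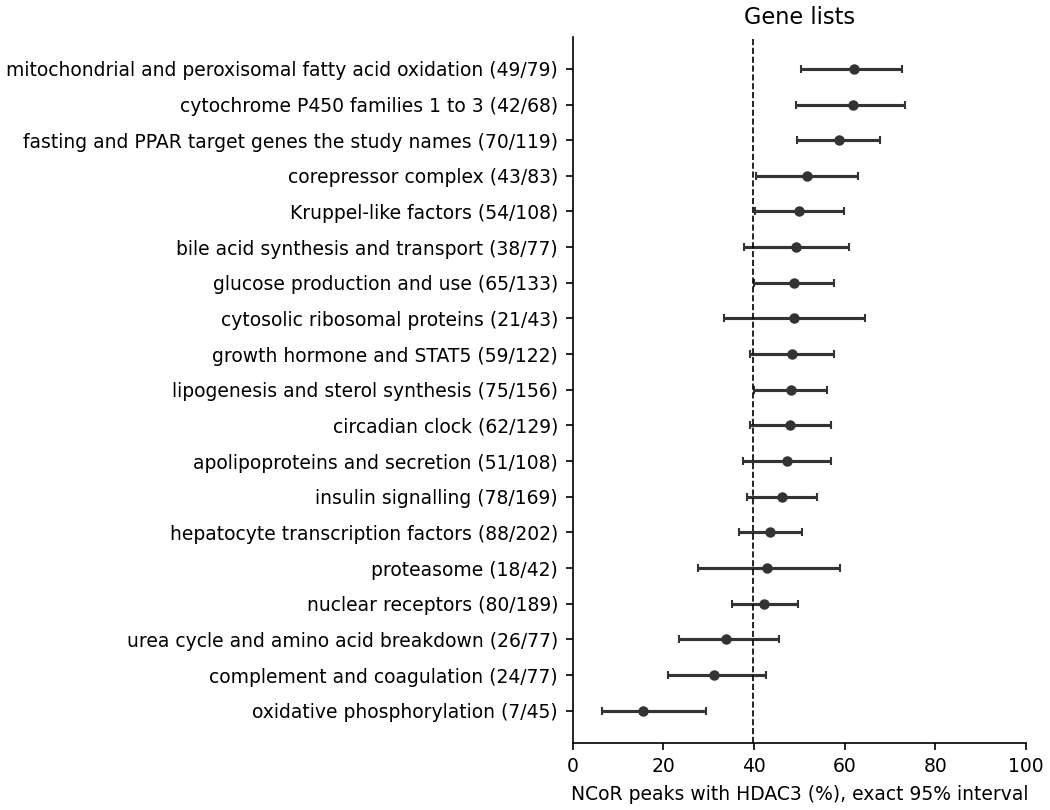
The points give the percentage of NCoR peaks with HDAC3 pooled over each gene list, with exact 95% intervals from the counts in brackets. The dashed line is the 39.7% over all NCoR peaks, and oxidative phosphorylation, at 15.6%, lies farthest below it.

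Some liver genes outside the naming rule stood near the ends and are given because their values were seen. Scd1, the stearoyl-CoA desaturase, had HDAC3 at 6 of 6 NCoR peaks. Cyp8b1, which makes cholic acid, had 5 of 5, the bile acid responsive repressor Nr0b2 4 of 4 and G6pc, the last enzyme of glucose production, 7 of 8. The clock repressor Per2 and the kinase Gsk3b had HDAC3 at none of 7 each. All had unadjusted p-values of Fisher's exact test between 0.0039 and 0.047, and none passed after adjustment. Because the genes were picked for this share, their p-values are low by selection and lend no support.

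The label of liver was checked with markers of its cell types. NCoR peaks were found at all 9 hepatocyte markers, 7 of which had 3 or more, and HDAC3 was at 18 of 58 of these peaks (31.0%). Of the 6 Kupffer cell markers 5 had no NCoR peak, and none of the 6 lymphocyte markers had one. Over all 21938 protein-coding genes, 10755 had an NCoR peak, 4492 (20.5%) had 3 or more and 11183 had none. These few markers are therefore a weak check. Of the 6 endothelial markers 1 had no NCoR peak and 5 had 3 or more, so the peaks did not set hepatocyte markers apart from these. Of the 6 stellate cell markers 2 had none and 2 had 3 or more, as did 2 and 2 of the 5 cholangiocyte markers. Endothelial markers had 29 peaks and 10 with HDAC3, stellate cell markers 10 and 3, and the cholangiocyte markers 41 and 21, of which Sox9 gave 36 and 19. Which cells a peak came from cannot be read from whole liver.

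HDAC3 without NCoR was rare at any gene. The 511 HDAC3 peaks with no NCoR centre within 200 bp were spread over 484 genes, and 25 genes had more than 1. Kyat3 and Phlda1 had the most, with 3 each. Of these peaks 22.7% were at promoters, against 7.46% of HDAC3 peaks with NCoR.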

How the data were processed

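NCoR and HDAC3 were measured by ChIP-seq in ad lib fed Bcl6 fl/fl liver, with 3 libraries from separate animals for each. Per the study's methods, single-end 75 bp reads were aligned to mm10 with Bowtie, tags were processed with HOMER, and the authors called peaks on pooled replicates against input and kept those that passed DESeq2 on the single libraries. Tool versions were not printed in the labels. The deposited lists held chromosome, start and end only, so the unit is other (positions), with no score, signal or depth. The SMRT list was not used here, and 34 samples of other groups were not analysed here.

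Peak centres were compared at 200 bp, and each NCoR peak was given to whichever protein-coding gene had its TSS closest in GENCODE M21 basic (GRCm38). Genes with at least 3 NCoR peaks were kept. Tests were two-sided Fisher's exact tests on peaks, at 0.05. Benjamini-Hochberg adjustment was made over genes, over motifs and over the distance bins of adjacent peaks. The p-values for promoters, CpG-rich windows and genes at the ends were not adjusted. Intervals were exact Clopper-Pearson at 95%. CpG content and motifs were read in 200 bp windows of the genome sequence. Mantel-Haenszel odds ratios were taken over nearest genes. Named genes were the 12 with the highest lower interval bound, the 12 with the lowest upper bound, the 5 with most NCoR peaks and up to 3 with most NCoR peaks of each list. Of the genes so named, 2 are not reported here. Among the list genes, 1 symbol was not in the annotation. Per-gene tests were checked on simulated data. The members and lists were chosen with earlier results of these data known. Analyses used Python with numpy, pandas, scipy and statsmodels. Alternatives covered the overlap distance, TSS choice, merging, peak minimum, promoters, chromosomes and window definitions.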

Additional observations from a re-analysis of the deposited data

How the results depend on the processing

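Of 98 recomputed values of the main results, 83 kept their direction and their side of the threshold or moved by less than their interval, and for single motifs 46 of 48 did. The overall HDAC3 share was 38.7% with centres within 100 bp, 38.9% with peaks beyond 50 kb from a TSS left out, 40.5% with NCoR peaks under 1 kb apart counted once and 41.0% without promoter peaks. Peaks counted once were taken as having HDAC3 if any of them had it, so merged sites of both kinds all counted towards HDAC3. Genes with HDAC3 at all NCoR peaks made up 4.68% within 50 kb and 0.91% at 5 or more peaks, and genes with HDAC3 at none 14.3% and 4.68%. The number of genes called higher was 1 with merged peaks and 2, Fosl2 among them, among genes with 10 or more peaks, a limit chosen after seeing the data. It was 0 in each other alternative, the exact binomial test included, as was the number called lower in every one. Genes with 10 or more peaks were still tested against NCoR peaks of all genes, where the share was 39.7%. For genes with 10 to 19 peaks it was 44.1%, so the 2 calls rest on an unlike reference. The odds ratio of promoter location at the ends was 0.693 within 50 kb (exact p = 0.018) and reversed to 1.33 with promoters of 5000 bp (exact p = 0.0055). That of CpG-rich windows at the ends was 0.508 at 5 or more peaks (exact p = 0.181), with fewer genes. The NF-Y odds ratio, 0.948 over all peaks, reversed to 1.001 without promoter peaks and to 1 without CpG-rich peaks, and passed no test in either. For adjacent peaks, the odds ratio of same against different genes reversed to 1.085 under 2 kb with gene 5′ ends as TSS and to 1.057 over 50 kb with peaks within 50 kb of a TSS, and passed no test in either. The causes were not tested. No paired analysis was possible because the lists pool the replicates and carry no column per replicate. For the same reason leaving out single replicates was not run, and a stricter peak threshold was not run because the lists hold no scores.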

Other observations

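NCoR peaks on the X chromosome had HDAC3 less often than those on autosomes, at 167 of 581 (28.7%, exact 95% interval 25.1 to 32.6%) against 13783 of 34556 (39.9%, 39.4 to 40.4%). The intervals did not overlap, no test was planned, and the animals were males. By G and C content of the 200 bp window the share was between 40.7% and 41.7% from 30 to 60%, 30.9% from 60 to 70% and 24.1% from 70 to 80%. By annotation it was 34.7% in exons, 40.0% in introns and 42.9% between genes.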
